A study of Rattus norvegicus with 36 samples.

Results

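The angiogenic ligands and receptors described here are 10 genes chosen by name: the vascular endothelial growth factor (VEGF) ligands *Vegfa*, *Vegfb*, *Vegfc* and *Pgf*, the VEGF receptors *Kdr* and *Flt1*, the angiopoietins *Angpt1* and *Angpt2*, the angiopoietin-like gene *Angptl4* and the adrenomedullin gene *Adm*. Of the 10, 9 were found, each under 1 identifier, among 24275 genes in the joined count tables, and *Kdr* was not analysed here. Poly-A RNA was sequenced in H9C2, a rat cardiac myoblast cell line, after transfection with mimics of miR-125b or of its 3′ end isoforms (isomiRs), and the counts of 33 libraries in 11 groups of 3 were used, out of 36 libraries and 12 groups. The comparisons asked how these genes responded to low oxygen, to each mimic and to the exact 3′ end of the mimic.

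All groups received 25 nmol/L of a mimic for 24 h followed by 24 h in 1 of the oxygen conditions. The mimics were the mimic control (MC), miR-125b, Plus A (1 A added at the 3′ end) and a series of shortened forms, from which the bases in the name were removed at the 3′ end (Trim A, Trim AG, Trim AGU). Normoxia cells were given fresh DMEM, whereas hypoxia cells were held under very low oxygen in serum-free, low-glucose DMEM, so that low oxygen and the change of medium cannot be told apart. Untransfected cells were not analysed here, every group carries a mimic, and the cells are a single established line without vessels or endothelium. Nothing in the labels says that the 3 libraries of a group came from separate cultures, so p-values measure only the spread between these samples, which may be technical. Mature microRNAs are not captured by poly-A libraries, and the level of each mimic in the cells was therefore not checked here. Levels are given in CPM, a gene's count scaled by the library's total count, as mean ± SD over 3 libraries. Fold changes and p-values come from edgeR's quasi-likelihood test fitted across all genes, and a gene was called changed where it differed 1.5-fold or more at a Benjamini-Hochberg adjusted p below 0.05.

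VEGF ligands are secreted proteins that bind receptor tyrosine kinases on endothelial cells and drive the growth and permeability of vessels. Vegfa acts mainly through Kdr, whereas Flt1 binds Vegfa, Vegfb and Pgf with high affinity and signals weakly, and Vegfc acts mainly on lymphatic vessels. Angpt1 activates the endothelial receptor Tek (also called Tie2) and stabilizes vessels, and Angpt2 opposes it in many settings. Angptl4 is a secreted inhibitor of lipoprotein lipase, and adrenomedullin is a vasodilator peptide. *Vegfa*, *Angptl4* and *Adm* are textbook targets of hypoxia-inducible factor (HIF), which accumulates when oxygen is low and binds short DNA elements near its target genes. In the heart, myocytes are a main source of Vegfa for the capillaries around them.

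The mimic is the only difference that the labels give between groups of 1 oxygen condition, and the sequences are shown for that reason. Libraries also differed in depth, as given below. They were derived from the mature rno-miR-125b-5p of RefSeq (GRCr8 chr11:29732588-29732609, plus strand) by adding or removing the bases in each name, and are 22 bases long in miR-125b, 23 in Plus A and 21, 20 and 19 in the shortened forms. Capitals mark the seed, bases 2 to 8, which all of these mimics share.
miR-125b: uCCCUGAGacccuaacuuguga
Plus A: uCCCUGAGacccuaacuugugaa
Trim A: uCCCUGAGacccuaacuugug
Trim AG: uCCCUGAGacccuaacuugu
Trim AGU: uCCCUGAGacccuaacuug

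*Vegfa*, *Angptl4* and *Adm* were higher in hypoxia under each mimic that could be tested, and their promoters are shown to give the sequence around their starts. RefSeq promoters (GRCr8, 250 bases before to 50 after the start) were found for 8 of the 10 genes, all but *Angpt1* and *Angpt2*. The core of the HIF element was searched as ACGTG or GCGTG on both strands, and 41.6% of 33469 RefSeq promoters of the same length held at least 1 match. The windows lie at chr9:22452604-22452903 (plus strand) for the first of 2 *Vegfa* entries, chr7:15258632-15258931 (minus strand) for *Angptl4* and chr1:174179950-174180249 (plus strand) for *Adm*. Capitals mark a match, read on the other strand, that begins at position -230 from the start of *Angptl4*.
Vegfa promoter: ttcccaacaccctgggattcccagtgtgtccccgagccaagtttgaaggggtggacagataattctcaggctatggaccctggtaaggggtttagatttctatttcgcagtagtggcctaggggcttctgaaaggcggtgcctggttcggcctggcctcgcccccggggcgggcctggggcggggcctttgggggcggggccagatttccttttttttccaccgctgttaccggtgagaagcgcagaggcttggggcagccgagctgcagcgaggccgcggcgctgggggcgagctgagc
Angptl4 promoter: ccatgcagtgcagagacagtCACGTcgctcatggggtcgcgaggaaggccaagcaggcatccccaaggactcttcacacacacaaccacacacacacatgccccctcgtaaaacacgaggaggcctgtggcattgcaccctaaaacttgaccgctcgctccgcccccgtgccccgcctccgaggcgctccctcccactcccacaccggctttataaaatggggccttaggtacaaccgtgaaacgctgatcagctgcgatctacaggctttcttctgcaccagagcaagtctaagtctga
Adm promoter: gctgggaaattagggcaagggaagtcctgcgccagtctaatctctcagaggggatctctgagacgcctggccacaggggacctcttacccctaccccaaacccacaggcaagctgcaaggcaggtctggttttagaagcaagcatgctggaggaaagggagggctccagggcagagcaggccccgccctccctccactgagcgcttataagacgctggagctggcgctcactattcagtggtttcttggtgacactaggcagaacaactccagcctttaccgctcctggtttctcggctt

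The *Vegfa* and *Adm* windows held no match, which says only that these letters are not in these 300 bases. *Vegfb*, *Pgf* and *Flt1* held 1 match each, *Vegfc* held 0 and *Kdr* held 2. A match is a string of letters and was not tested for binding.

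Libraries held 28361216 to 42672584 counts (median 29923694). The 3 Hypoxia Trim AG libraries, at 41306881, 39940087 and 42672584 counts, were deeper than every other library, of which the deepest held 34505938. Replicate 2 of Hypoxia Trim AGU had counts for 16981 genes, against 18663 and 18455 in replicates 1 and 3. Myoblast markers were present, with *Cdh15* at 216 to 572 CPM and *Myod1* at 19.9 to 138 CPM over the group means, while *Myf5* and *Pax7* had group means of at most 0.0234 and 0.472 CPM. Endothelial markers were found for 10 of 15 genes, and their sum was 76.7 to 129 CPM over the libraries. Most of that sum came from *Eng* and *Egfl7*, which other cells express too, and *Tie1*, *Vwf*, *Emcn*, *Esam*, *Erg*, *Robo4* and *Sox18* had group means of at most 0.186 CPM. Some libraries stood apart. *Cav1*, which differed between Plus A and miR-125b in hypoxia (93.9 to 100 against 241 to 246 CPM), was at 269, 98 and 98.3 CPM in the libraries labelled Normoxia Plus A and at 102, 282 and 263 CPM in those labelled Normoxia miR-125b, so that replicate 1 of each was near the other group. The 3 Hypoxia Trim AGU libraries lay further apart than those of other groups, with a root mean square distance of 0.593 log2 units over 13162 genes against 0.229 to 0.315. The calls of members that changed without replicate 1 of Normoxia miR-125b and of Normoxia Plus A, or without replicate 2 of Hypoxia Trim AGU, are named beside their results. Without the former pair no log2 fold change of a member with oxygen under miR-125b or Plus A moved by more than 0.11.

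Per transcript length, *Vegfa* was the highest of the 9 genes in all 11 groups and *Angpt2* the lowest. Under miR-125b in hypoxia the level was 171 CPM per kilobase of transcript for *Vegfa*, 53.6 for *Vegfb*, 22.8 for *Vegfc* and 14.5 for *Adm*. *Angpt1* followed at 7.02, *Pgf* at 4.78, *Angptl4* at 2.44, *Flt1* at 0.799 and *Angpt2* at 0.0572. The deposited FPKM values gave the same order of all 9 genes in each of the 11 groups. Under MC in hypoxia *Angptl4* reached 14.9 on this scale and lay next to *Angpt1* at 16.6, whereas under miR-125b in normoxia it was at 0.666, below every other gene but *Angpt2*.

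**Figure D1:**
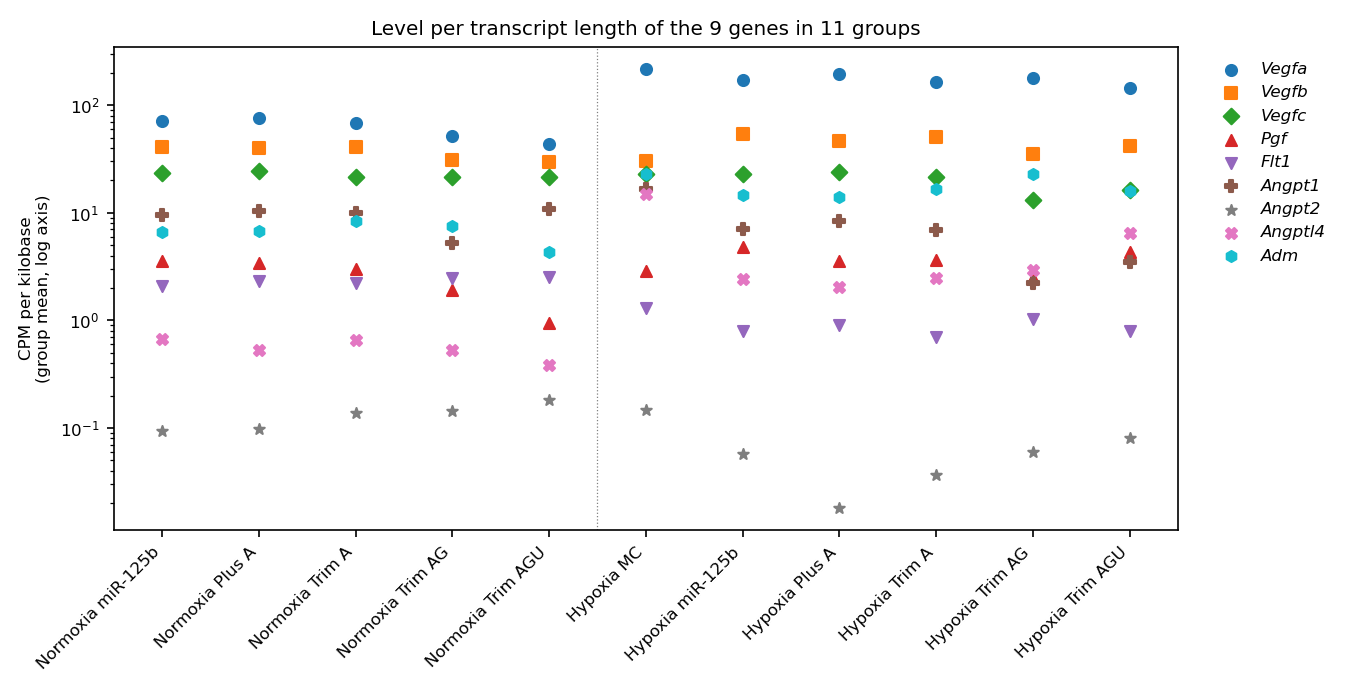
Group mean level per transcript length (CPM per kilobase, log axis) of the 9 genes, with the 5 normoxia groups left and the 6 hypoxia groups right of the dotted line. *Vegfa* is the top point in each group, from 43.3 under Trim AGU in normoxia to 217 under MC in hypoxia, and *Angptl4* moves from below *Flt1* in normoxia to above it in hypoxia.

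*Angpt2* was close to the limit of detection. Its counts ran from 0 to 17 over the 33 libraries, with 4 libraries at 0, where a count of 0 still allows up to 3 counts (0.0941 to 0.103 CPM at these depths, for counting error only). Its group means were 0.044 to 0.443 CPM, and it passed the filter on low counts in 9 comparisons, where neither edgeR nor DESeq2 called it. DESeq2, run with its own filtering in place of this one, also tested Plus A against MC in hypoxia and called *Angpt2* lower there (log2 fold change -2.99 ± 1.13 SE, DESeq2 adjusted p = 0.0198), on 0 to 2 counts per library against 6 to 16.

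Hypoxia was compared with normoxia under each mimic other than MC. Under miR-125b, 3 of the 8 genes tested were called higher (*Vegfa*, *Angptl4* and *Adm*) and 1 lower (*Flt1*), where 20.9% of all genes tested were called, 9.34% higher and 11.5% lower. The same 4 genes were called in the same directions under Plus A (22.8% of all genes called). Under Trim A, 5 of 8 were called, with *Angpt1* lower in addition (26.5% of all genes), and under Trim AG 6 of 8, with *Angpt1* and *Vegfc* lower (32.8% of all genes). Under Trim AGU, 6 of 9 were called, with *Pgf* higher and *Angpt1* lower beside the first 4 (27.0% of all genes). The median log2 fold change of the genes tested was 0.32, 0.03, 0.23, 0.28 and 0.55 in these comparisons, against 0.004 to 0.020 for the median of all genes. In bulk RNA of this kind, fewer cells with a transcript and less transcript per cell cannot be told apart.

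*Vegfa*, the main driver of vessel growth, is placed by the deposited tables on chromosome 9 (17340341 to 17355681, plus strand, rat, build not named there). In normoxia under miR-125b its 3 libraries had 269, 234 and 250 CPM, and in hypoxia 614, 597 and 612 CPM. No library of either condition reached the range of the other, and the rise was 2.29-fold (log2 fold change 1.19 ± 0.0568 SE, edgeR adjusted p = 4.9e-07). Under Plus A it went from 269 ± 26 to 685 ± 45.8 CPM (SD, n = 3) and under Trim A from 244 ± 22 to 582 ± 69.4 CPM, rises of 2.35-fold and 2.26-fold. The rises under Trim AG (166, 191 and 192 to 709, 558 and 645 CPM) and Trim AGU (139, 159 and 163 to 660, 315 and 568 CPM) were 3.49-fold and 3.39-fold. Replicate 2 of Hypoxia Trim AGU was the lowest hypoxia library of all, and without it the log2 fold change was 1.97 in place of 1.76. All 5 rises kept their call under every alternative tried.

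The other VEGF ligands were called with oxygen under at most 1 mimic each. *Vegfb*, a ligand of Flt1 (chromosome 1, 222239022 to 222242644), had log2 fold changes of 0.10 to 0.55 and was called under none of the 5 mimics with edgeR or DESeq2. Its p was below 0.05 before and after adjustment under miR-125b (1.23-fold, edgeR adjusted p = 0.00217) and Trim A (1.19-fold, edgeR adjusted p = 0.0218), short of the fold threshold. *Vegfc*, the lymphatic ligand (chromosome 16, 40440207 to 40555576), was called under Trim AG alone, where it fell from 46.8, 44.9 and 44.8 to 28, 27.6 and 29 CPM. That was a log2 fold change of -0.68 ± 0.0713 (SE, edgeR adjusted p = 6.3e-05), with no overlap between the conditions. Under miR-125b, Plus A and Trim A it was -0.11, -0.15 and -0.07 with overlapping libraries, whereas under Trim AGU it was -0.36 (edgeR adjusted p = 0.0579), with libraries that did not overlap, and -0.39 without replicate 2 of Hypoxia Trim AGU (edgeR adjusted p = 0.0207), short of the fold threshold.

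*Pgf*, placental growth factor (chromosome 6, 108994018 to 109004598), was called with oxygen under Trim AGU alone. Its libraries there had 1.97, 1.1 and 1.32 CPM in normoxia and 5.19, 9.38 and 5.84 CPM in hypoxia, which was 4.84-fold (log2 2.27 ± 0.375 SE, edgeR adjusted p = 0.00499). The highest of these values was replicate 2, and without it the log2 fold change was 1.88 (edgeR adjusted p = 6.2e-04). Under the other 4 mimics the log2 fold changes were -0.04 to 0.36 and none was called. The conditions did not overlap under miR-125b (0.35, edgeR adjusted p = 0.043, short of the fold threshold) or Trim AG (0.36, edgeR adjusted p = 0.0948).

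*Flt1*, the high-affinity VEGF receptor (chromosome 12, 9034308 to 9205905), fell in hypoxia under each of the 5 mimics. With miR-125b it went from 16.3, 13.5 and 13.6 CPM to 5.47, 6.07 and 5.17 CPM, a 2.75-fold drop (log2 -1.46 ± 0.123 SE, edgeR adjusted p = 1.3e-05). The drops under the isomiRs were 2.74-fold (Plus A), 3.32-fold (Trim A), 2.39-fold (Trim AG) and 3.15-fold (Trim AGU), and no hypoxia library reached its normoxia counterpart. The widest spread was in Hypoxia Trim AGU, at 7.98, 3.04 and 5.7 CPM, and without replicate 2 of that group the log2 fold change was -1.41 in place of -1.66. All 5 normoxia means (14.5 to 17.8 CPM) lay above all 6 hypoxia means (4.87 to 8.97 CPM), with Hypoxia MC the highest of the latter.

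*Angpt1*, the activating ligand of Tek (chromosome 7, 81342280 to 81592206), had log2 fold changes of -0.54 under miR-125b and -0.40 under Plus A, which did not reach the fold threshold (edgeR adjusted p = 8.7e-04 and 0.0126). Without replicate 3 of Hypoxia miR-125b the first was -0.61 and passed it. *Angpt1* fell under Trim A, Trim AG and Trim AGU. Under Trim AG the libraries went from 8.48, 11.5 and 9.89 to 3.7, 4.41 and 4.48 CPM, a 2.36-fold drop (log2 -1.24 ± 0.162 SE, edgeR adjusted p = 2.2e-04), and under Trim AGU from 15.9, 24.2 and 21.9 to 7.54, 2.38 and 9.72 CPM, a 3.13-fold drop (log2 -1.65, edgeR adjusted p = 0.0249) that was -1.28 without replicate 2 of Hypoxia Trim AGU (edgeR adjusted p = 9.7e-04). The call under Trim AGU was lost without replicate 2 or 3 of Normoxia Trim AGU (edgeR adjusted p = 0.0929 and 0.0771), and that under Trim A (log2 -0.61) fell under the fold threshold without replicate 2 or 3 of Normoxia Trim A or replicate 3 of Hypoxia Trim A (-0.52 to -0.58).

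*Angptl4*, the lipoprotein lipase inhibitor (chromosome 7, 18627808 to 18634079), had the largest rises with oxygen of the 9 genes. Its normoxia means were 0.726 to 1.26 CPM, from 18 to 43 counts per library. Under miR-125b it went from 1.06, 1.22 and 1.49 to 4.47, 5.13 and 4.23 CPM, 3.45-fold (log2 1.79 ± 0.187 SE, edgeR adjusted p = 4.8e-05). The rise was 3.56-fold under Plus A, 3.63-fold under Trim A and 5.59-fold under Trim AG. Under Trim AGU it went from 0.624, 0.862 and 0.694 to 12.8, 12.6 and 11.1 CPM, 17.2-fold (log2 4.10 ± 0.241 SE, edgeR adjusted p = 1.6e-04), and 4.01 without replicate 2 of Hypoxia Trim AGU. None of these conditions overlapped, and every call held under every alternative tried.

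*Adm*, the vasodilator peptide (chromosome 1, 175445088 to 175447259), rose from 9.56, 9.43 and 8.44 to 20.2, 20.8 and 19.4 CPM under miR-125b, 2.08-fold (log2 1.06 ± 0.0887 SE, edgeR adjusted p = 1.3e-05). It rose 1.92-fold under Plus A and 1.88-fold under Trim A. Under Trim AG it went from 11.4, 8.82 and 10.8 to 32.2, 29.8 and 33.2 CPM, 3.08-fold, and under Trim AGU from 5.85, 6.55 and 5.58 to 21.8, 20.8 and 23 CPM, 3.75-fold (log2 1.91, and 1.87 without replicate 2 of Hypoxia Trim AGU). Among these mimics Trim AGU had the lowest normoxia mean (6 ± 0.5 CPM, SD) and Trim AG the highest hypoxia mean (31.7 CPM).

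**Figure D2:**
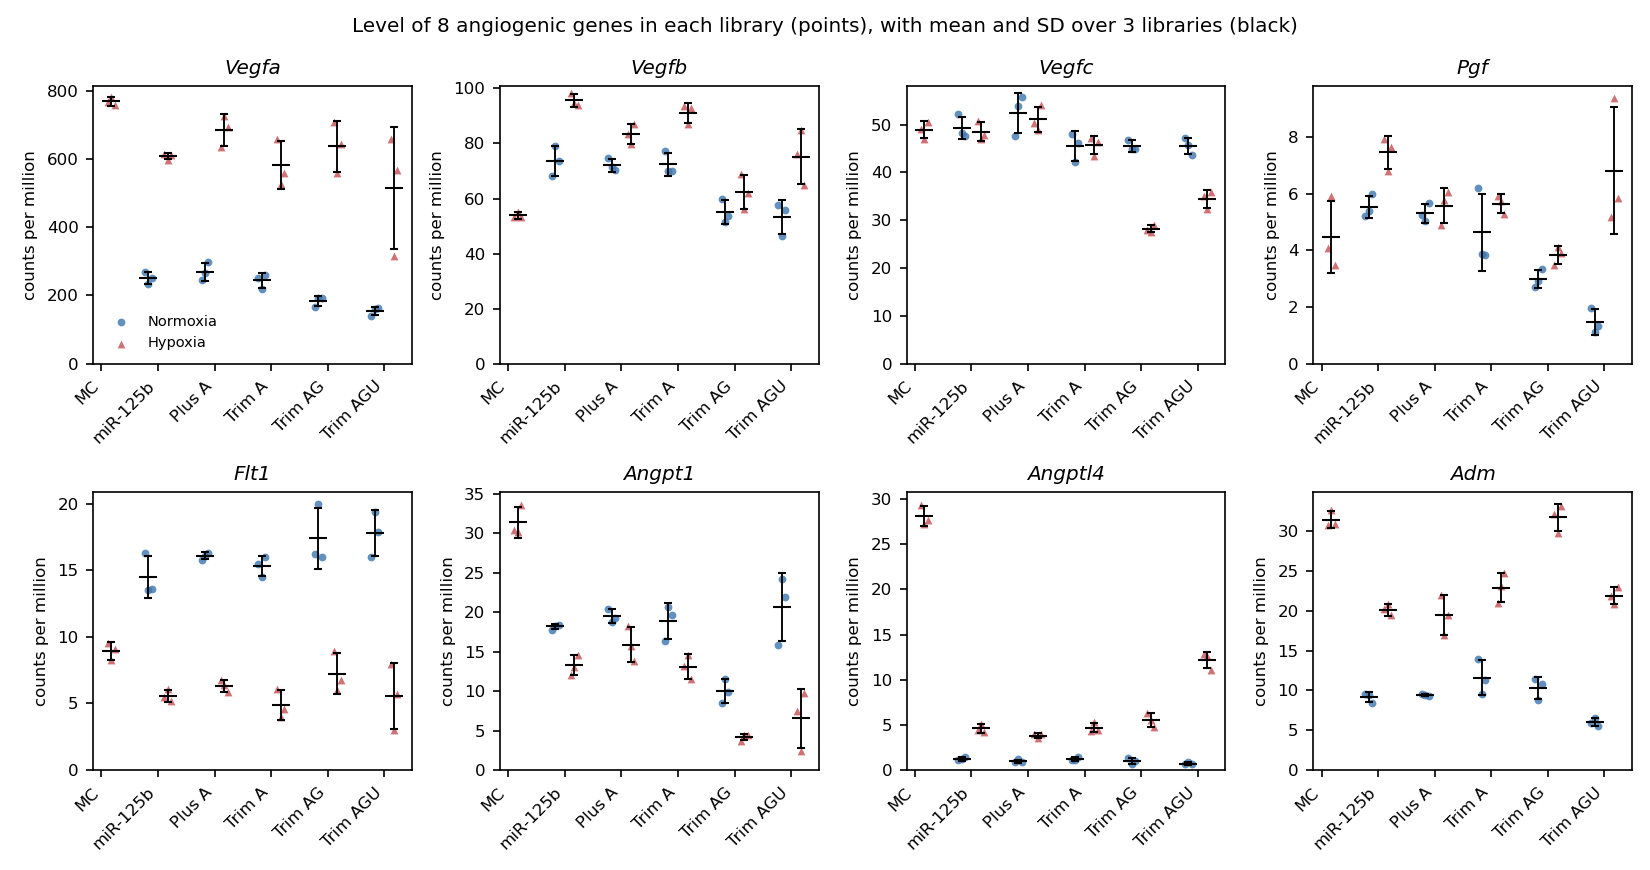
Level of 8 genes in CPM (vertical axes start at 0) under each mimic, with blue circles for the normoxia and red triangles for the hypoxia libraries and black bars for the mean and SD of 3 libraries (MC has hypoxia libraries only). *Vegfa*, *Angptl4* and *Adm* lie higher and *Flt1* lower in hypoxia under all 5 mimics with both conditions, and *Angptl4* and *Angpt1* are highest under MC, at 28.1 and 31.4 CPM.

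Each mimic was compared with MC in hypoxia, with the 3 Hypoxia MC libraries shared by the 5 comparisons. Under miR-125b, 2 of 9 genes tested were called higher (*Vegfb* and *Pgf*) and 4 lower (*Flt1*, *Angpt1*, *Angptl4* and *Adm*), where 21.9% of all genes were called, 9.43% higher and 12.5% lower. Called genes numbered 4 of 8 under Plus A (24.8% of all genes), 4 of 8 under Trim A (28.1%), 3 of 8 under Trim AG (37.2%) and 3 of 9 under Trim AGU (23.8%). *Angpt1* and *Angptl4* were lower in all 5, and *Vegfb* higher in all but Trim AG. Over the same groups the summed level of the 12 myoblast markers was 1303 to 1339 CPM in the Hypoxia MC libraries, 544 to 568 CPM under miR-125b, 628 to 639 under Plus A, 428 to 564 under Trim A, 300 to 442 under Trim AG and 328 to 409 under Trim AGU. Of 11 markers tested, 8 to 10 were called lower in each of these 5 comparisons. *Myf5* and *Pax7* were the markers near 0 in every group, and the part of muscle differentiation in these differences was not tested.

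Of the members tested with edgeR, *Angpt1* was furthest from MC under Trim AG and Trim AGU, and *Angptl4* under each other mimic. For *Angptl4*, the Hypoxia MC libraries had 29.3, 27.2 and 27.7 CPM and the Hypoxia miR-125b libraries 4.47, 5.13 and 4.23 CPM, a 5.93-fold lower level (log2 -2.57 ± 0.086 SE, edgeR adjusted p = 2.0e-09). It was 7.22-fold lower under Plus A, 5.77-fold under Trim A and 4.81-fold under Trim AG. Under Trim AGU the 3 libraries (12.8, 12.6 and 11.1 CPM) lay between MC and all others, 2.09-fold below MC (log2 -1.06 ± 0.137 SE, edgeR adjusted p = 0.00307). These 5 calls held under every alternative tried.

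*Angpt1* was at 30.4, 30.1 and 33.6 CPM under MC and at 12.1, 13.1 and 14.6 CPM under miR-125b in hypoxia, 2.3-fold lower (log2 -1.20 ± 0.0766 SE, edgeR adjusted p = 2.2e-07). Plus A and Trim A gave log2 fold changes of -0.96 and -1.22. Trim AG libraries were 7.15-fold lower than MC (log2 -2.84 ± 0.111 SE, edgeR adjusted p = 5.6e-07) and Trim AGU libraries 4.43-fold (log2 -2.15 ± 0.422 SE, edgeR adjusted p = 0.0119). The Trim AGU call was lost without replicate 3 of Hypoxia MC (edgeR adjusted p = 0.0517), and without replicate 2 of Hypoxia Trim AGU the log2 fold change was -1.78.

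*Vegfb* was higher than MC (53.3, 55.2 and 53.1 CPM) under miR-125b, at 98.3, 94.9 and 93.9 CPM, a 1.82-fold difference (log2 0.87 ± 0.0374 SE, edgeR adjusted p = 1.1e-08). The log2 fold change was 0.65 under Plus A, 0.80 under Trim A, 0.27 under Trim AG (not called) and 0.63 under Trim AGU. The last of these fell under the fold threshold without replicate 2 of Hypoxia Trim AGU (0.47, edgeR adjusted p = 0.00197) or without normalization by TMM (0.48), and its adjusted p was 0.0834 to 0.0989 without any 1 of the 3 MC libraries. *Vegfa* was lower than under MC by less than the fold threshold under each mimic, with log2 fold changes of -0.30, -0.14, -0.36, -0.21 and -0.46 in the order given above, and edgeR and DESeq2 called none. The edgeR p-value of *Vegfa* was below 0.05 before and after adjustment under miR-125b, Plus A and Trim A.

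The other members were called different from MC under fewer mimics. *Pgf* was called higher only under miR-125b, with 7.91, 6.81 and 7.65 against 4.07, 5.91 and 3.47 CPM (log2 0.77 ± 0.187 SE, edgeR adjusted p = 0.00436). Under Trim A it was at 0.38 and was called without replicate 2 of Hypoxia MC (0.63, edgeR adjusted p = 0.0242). Under Trim AGU it was at 0.77 as well (edgeR adjusted p = 0.132), at 0.38 without replicate 2 of Hypoxia Trim AGU (edgeR adjusted p = 0.221), and was called with all libraries in 1 fit (0.76, edgeR adjusted p = 0.00776). *Vegfc* was called lower only under Trim AG (log2 -0.73 ± 0.0672 SE, edgeR adjusted p = 3.2e-05). Under Trim AGU it was also lower, at -0.37 (edgeR adjusted p = 0.0275), short of the fold threshold. Those libraries did not overlap, at 35.1, 32.3 and 35.9 CPM against 49.1, 47 and 50.6 CPM under MC. *Flt1* was called lower under miR-125b (-0.65) and Trim A (-0.84), and had -0.48, -0.25 and -0.57 under Plus A, Trim AG and Trim AGU, the last of which was called without replicate 1 of Hypoxia Trim AGU (-0.88, edgeR adjusted p = 0.049). The value under Plus A had an edgeR adjusted p of 0.00626, short of the fold threshold. *Adm* was called lower under miR-125b (-0.61) and Plus A (-0.67), and had -0.41, 0.08 and -0.38 under Trim A, Trim AG and Trim AGU. Its edgeR adjusted p was 0.00434 under Trim A and 0.0377 under Trim AGU, both short of the fold threshold. The *Adm* calls lie near the fold threshold: the first fell to -0.58 without replicate 2 of Hypoxia MC or replicate 3 of Hypoxia miR-125b, and the second to -0.57 without replicate 2 of Hypoxia Plus A.

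**Figure D3:**
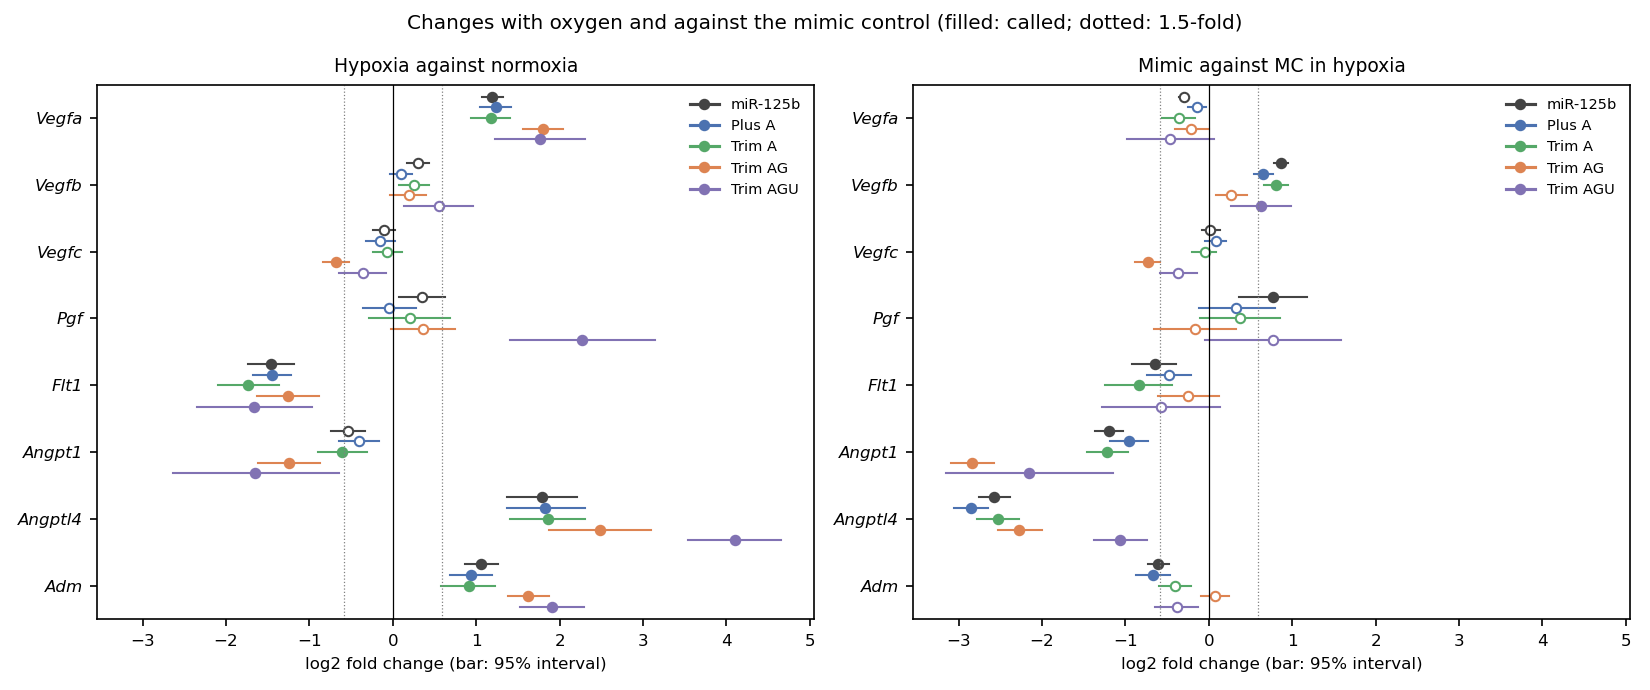
Log2 fold changes of 8 genes (bars, 95% intervals of the edgeR fit) for hypoxia against normoxia under each mimic (left) and for each mimic against MC in hypoxia (right), with filled points for called changes and dotted lines at 1.5-fold. *Angptl4* has the largest rise on the left (4.10 under Trim AGU) and, with *Angpt1* under Trim AG (-2.84), the largest decreases on the right (-2.85 under Plus A).

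Normoxia MC was present only as the authors' group means of scaled counts beside those of Normoxia Plus A, with no value per library and so no error or test. These means, Plus A first, were 8013 and 4363 for *Vegfa*, 2142 and 1023 for *Vegfb*, and 158 and 56.6 for *Pgf*. Those for *Angpt1* were 578 and 1066, for *Angptl4* 29.5 and 91.1, and for *Angpt2* 7.12 and 34.6. *Vegfc* (1559 and 1701), *Flt1* (478 and 545) and *Adm* (280 and 310) had ratios of 0.876 to 0.916. Over 14416 genes with a mean of at least 10 the median ratio was 1.01, with 11.1% of genes at 1.5 or more and 11.8% at or below its inverse.

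The isomiRs were compared with miR-125b at the same dose and time in 4 pairs per oxygen condition, 8 pairs in all, with p-values adjusted over all genes within each pair. The 4 pairs of a condition share its miR-125b libraries and are not independent. In hypoxia, edgeR called 0 of 8 genes for Plus A (3 at an unadjusted p below 0.05, 0 called by DESeq2), where 2.03% of all genes were called. For Trim A it also called 0 of 8 (1 at an unadjusted p below 0.05, 0 by DESeq2; 0.873% of all genes). Trim AG had 5 of 8 genes called, 4 lower and 1 higher (19.3% of all genes), and Trim AGU had 1 of 8 (3.75% of all genes). In normoxia edgeR called 0 of 8 for Plus A (0 at an unadjusted p below 0.05, 0 by DESeq2), where 0% of all 14781 genes were called, 404 had an unadjusted p below 0.05 and DESeq2 called 1. This comparison holds both libraries that lay near the other group in *Cav1*, and without them *Vegfa* went from 0.11 (edgeR adjusted p = 0.997) to 0.24 (0.0615) and *Vegfc* from 0.09 (0.997) to 0.21 (0.0644), with still no member called. Trim A had 0 of 9 (1 at an unadjusted p below 0.05, 0 by DESeq2; 0.414% of all genes), Trim AG 2 of 8 (13.9%) and Trim AGU 3 of 9 (11.4%).

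For Plus A, the extra 3′ A, the intervals show which differences the data allow. In hypoxia the log2 fold change of *Vegfa* against miR-125b was 0.16 (95% interval 0.04 to 0.27), of *Vegfb* -0.22 (-0.32 to -0.11), of *Flt1* 0.17 (-0.11 to 0.45) and of *Adm* -0.07 (-0.27 to 0.14). *Pgf* at -0.44 (-0.73 to -0.15) and *Angptl4* at -0.29 (-0.61 to 0.03) had intervals that reach past the fold threshold, and *Vegfb* and *Pgf* had an adjusted p below 0.05 (0.014 and 0.0496 in edgeR) at a smaller fold. In normoxia the widest interval of the 8 genes tested was that of *Angptl4*, -0.34 (-0.90 to 0.23). For Trim A in hypoxia, *Pgf* was at 5.92, 5.73 and 5.27 CPM against 7.91, 6.81 and 7.65 CPM under miR-125b, with no overlap, and was not called. In the same comparison *Vegfa* was at -0.06 (-0.25 to 0.14), *Angpt1* at -0.02 (-0.30 to 0.27) and *Angptl4* at 0.04 (-0.31 to 0.38). These intervals bound the difference, and a missing call does not show that the mimics act alike.

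For Trim AG, which lacks the last 2 bases of miR-125b, the largest difference from miR-125b in hypoxia was in *Angpt1*. There the libraries had 3.7, 4.41 and 4.48 CPM against 12.1, 13.1 and 14.6 CPM under miR-125b, 3.12-fold less (log2 -1.64 ± 0.133 SE, edgeR adjusted p = 7.1e-05), and in normoxia 8.48, 11.5 and 9.89 against 17.8, 18.3 and 18.4 CPM, 1.88-fold less (edgeR adjusted p = 3.6e-04). *Pgf* was also lower in both conditions, 1.92-fold in hypoxia and, by about as much as *Angpt1*, 1.9-fold in normoxia. *Vegfc* was called lower in hypoxia (log2 -0.76 ± 0.0688 SE, edgeR adjusted p = 1.2e-04) and had -0.16 in normoxia. *Vegfa* had -0.50 and *Vegfb* -0.47 in normoxia (edgeR adjusted p = 0.00101 and 0.00109), short of the fold threshold. *Vegfb* was 1.52-fold lower in hypoxia, a call that fell under the fold threshold without replicate 1 of Hypoxia miR-125b (-0.57) or replicate 2 of Hypoxia Trim AG (-0.54). *Adm* was 1.6-fold higher in hypoxia (32.2, 29.8 and 33.2 against 20.2, 20.8 and 19.4 CPM, edgeR adjusted p = 2.8e-04).

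With Trim AGU, which lacks 3 bases, the called gene in hypoxia was *Angptl4*, 2.82-fold above miR-125b (SE 0.169 on the log2 scale, edgeR adjusted p = 0.00905) with no overlap. Its adjusted p was 0.0689 to 0.0901 without any 1 of the 3 Hypoxia miR-125b libraries, at log2 fold changes of 1.46 to 1.58. *Angpt1* had a log2 fold change of -0.96 (95% interval -1.96 to 0.04) that was not called, and without replicate 2 of Hypoxia Trim AGU it was -0.59 (edgeR adjusted p = 0.0358) and was called. It was also called with all libraries in 1 fit (-0.95, edgeR adjusted p = 0.00357). The differences of *Vegfa*, -0.17 (-0.69 to 0.35), and *Pgf*, -0.01 (-0.70 to 0.67), had wide intervals. *Vegfc* was at -0.40 (edgeR adjusted p = 0.0693), and at -0.42 without replicate 2 of Hypoxia Trim AGU (edgeR adjusted p = 0.00806), short of the fold threshold. In normoxia Trim AGU libraries were lower for *Vegfa* (139, 159 and 163 against 269, 234 and 250 CPM, 1.64-fold, edgeR adjusted p = 5.9e-04), *Pgf* (1.97, 1.1 and 1.32 against 5.21, 5.39 and 5.98 CPM, 3.78-fold, edgeR adjusted p = 5.9e-04) and *Adm* (5.85, 6.55 and 5.58 against 9.56, 9.43 and 8.44 CPM, 1.53-fold, edgeR adjusted p = 0.0102). The *Adm* call fell under the fold threshold without replicate 1 of Normoxia miR-125b (-0.58) or replicate 3 of Normoxia Trim AGU (-0.56). No other call of a member in the 18 pairwise comparisons changed when replicate 1 of Normoxia miR-125b and of Normoxia Plus A were left out together.

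**Figure D4:**
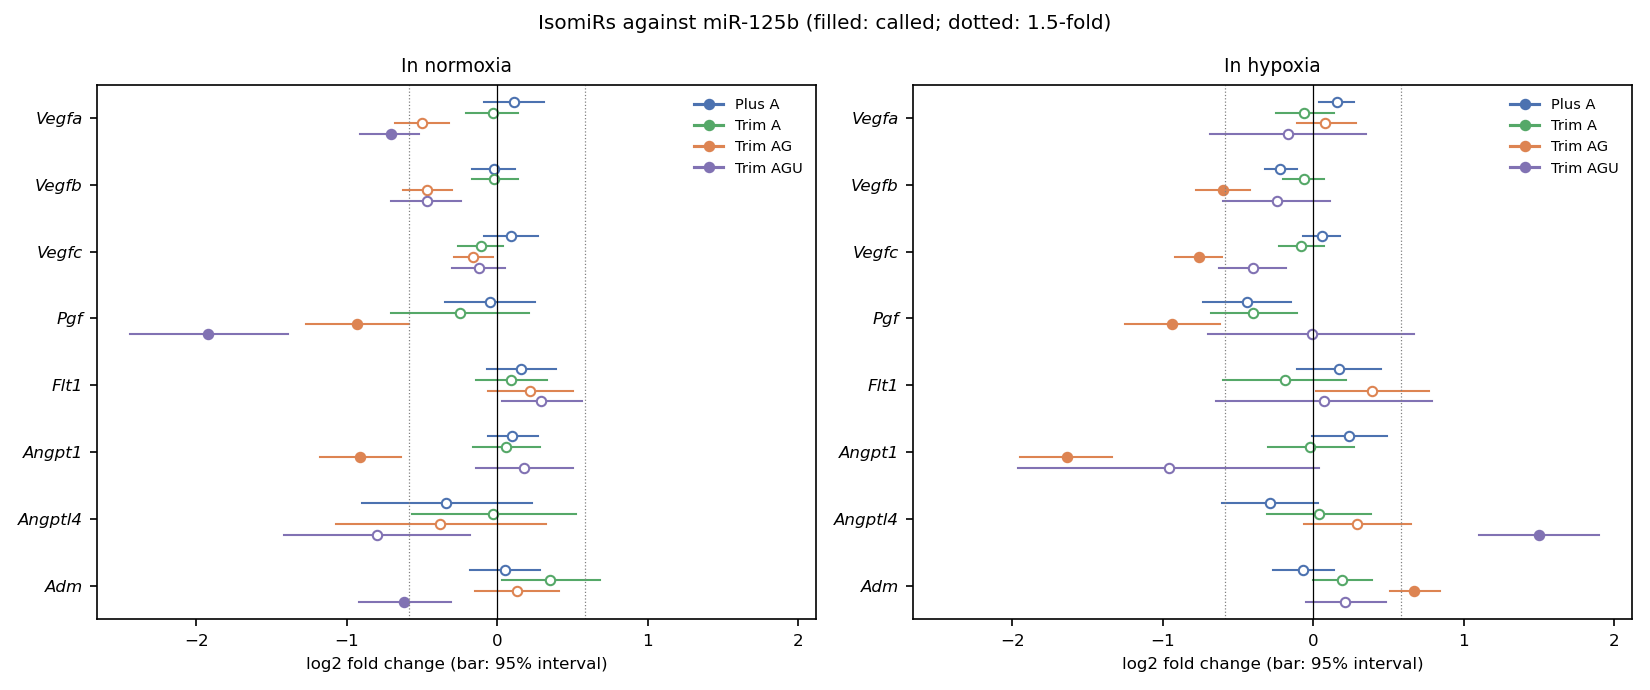
Log2 fold changes of 8 genes (bars, 95% intervals of the edgeR fit) for each isomiR against miR-125b in normoxia (left) and hypoxia (right), with filled points for called changes and dotted lines at 1.5-fold. Plus A and Trim A have no filled point, Trim AG has 2 in normoxia and 5 in hypoxia, and Trim AGU has 3 in normoxia and 1 in hypoxia, *Angptl4*, 2.82-fold higher.

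Whether the response to oxygen itself differed between an isomiR and miR-125b was tested as an interaction over the 4 groups. The miR-125b libraries of both conditions are shared by all of these tests. For Plus A edgeR called 0 of 9 genes (2 at an unadjusted p below 0.05, 0 by DESeq2; 0.0193% of all genes called), and for Trim A 0 of 9 (0 at an unadjusted p below 0.05, 0 by DESeq2; 0.605% of all genes). Trim AG had 2 of 9 called (11.3% of all genes), with *Vegfc* at -0.61 ± 0.0873 (SE, edgeR adjusted p = 5.6e-04) and *Angpt1* at -0.74 ± 0.179 (SE, edgeR adjusted p = 0.011), both falling more under Trim AG. The *Vegfc* interaction was -0.58, short of the fold threshold, in DESeq2 and without replicate 1 of Hypoxia miR-125b or replicate 3 of Normoxia miR-125b, and the *Angpt1* interaction had an adjusted p of 0.155 with all libraries in 1 fit. *Vegfa* had an interaction of 0.57 ± 0.122 (SE, edgeR adjusted p = 0.00572) with Trim AG, just short of the fold threshold, and DESeq2 put it just past (0.60). It was also past it (0.61 to 0.65) without replicate 2 of Normoxia miR-125b, replicate 2 or 3 of Normoxia Trim AG or replicate 2 of Hypoxia Trim AG. *Adm*, at 0.53, was called without replicate 3 of Normoxia miR-125b (0.59) or replicate 1 of Normoxia Trim AG (0.61), and *Angptl4*, at 0.66, without the latter (0.97, edgeR adjusted p = 0.0498).

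Trim AGU had 3 of 9 called (0.966% of all genes). *Angptl4* rose 5.03-fold more under Trim AGU than under miR-125b (log2 2.33 ± 0.28 SE, edgeR adjusted p = 0.00667), and this call held under every alternative tried. *Pgf* was at 1.95 ± 0.403 (SE, edgeR adjusted p = 0.0451) and *Adm* at 0.86 ± 0.163 (SE, edgeR adjusted p = 0.0335). For Trim AGU against miR-125b, the log2 fold change of *Pgf* was -1.92 in normoxia and -0.01 in hypoxia. That of *Adm* was -0.62 in normoxia and 0.21 in hypoxia (edgeR adjusted p = 0.279 for the latter). *Pgf* and *Adm* were called different from miR-125b in normoxia only, where they were lower. Without replicate 1 of Normoxia miR-125b, the library near the Plus A group in *Cav1*, *Pgf* had an adjusted p of 0.105 at 1.95 and *Adm* of 0.0945 at 0.80. Both calls were also lost without any other 1 of the 6 miR-125b libraries, replicate 3 of Normoxia Trim AGU or replicate 3 of Hypoxia Trim AGU, that of *Pgf* without replicate 2 and that of *Adm* without replicate 1 of Normoxia Trim AGU. The highest edgeR adjusted p was 0.139 for *Pgf* and 0.131 for *Adm*. Without replicate 2 of Hypoxia Trim AGU all 3 remained called, at 2.19, 1.51 and 0.79, and *Vegfa* was called in addition at 0.75 (edgeR adjusted p = 0.00604). *Angpt1* had an interaction of -1.11 with Trim AGU (edgeR adjusted p = 0.191) and -0.77 without that library (0.0645). It was called with all libraries in 1 fit (-1.13, edgeR adjusted p = 0.0241).

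**Figure D5:**
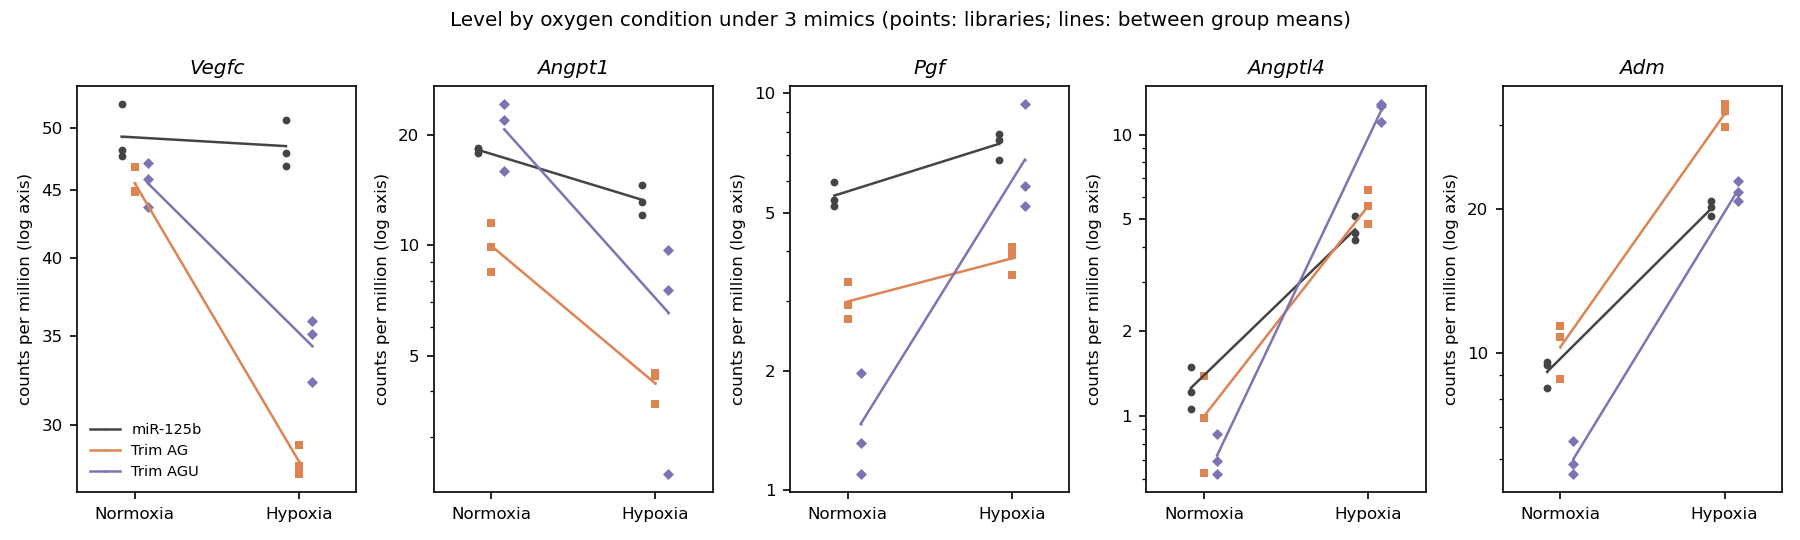
Level in CPM (log axes) in normoxia and hypoxia under miR-125b, Trim AG and Trim AGU of the 5 genes with a called interaction, with points for libraries and lines between group means. The lines of *Angptl4*, *Pgf* and *Adm* are steeper under Trim AGU than under miR-125b and start from lower normoxia means. Those of *Vegfc* and *Angpt1* fall more steeply under Trim AG than under miR-125b, and also under Trim AGU.

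Partners of these genes were followed in a list of 20 other VEGF, angiopoietin and adrenomedullin genes, of which 19 were found and 11 or 12 passed the filter in each comparison named here. In hypoxia against normoxia under miR-125b, 3 were called higher and 5 lower (9.34% and 11.5% of all genes), with a median log2 fold change of -0.29 against 0.014 for all genes. *Figf*, the gene of VEGF-D, rose (log2 1.74 ± 0.23 SE, edgeR adjusted p = 2.1e-04), as did *Adm2*, an adrenomedullin paralog (1.27). *Ptprb*, a phosphatase that opposes Tek (-2.56), and *Angpt4*, another Tek ligand (-1.49), fell. Against MC in hypoxia, miR-125b had 1 of 11 higher (*Adm2*, 0.85) and 7 lower (9.43% and 12.5% of all genes), among them *Figf* (-2.32 ± 0.0849 SE, edgeR adjusted p = 3.6e-09) and *Tek* (-1.04). The median was -0.80 there and -0.68 for Plus A against MC, with -0.81 for Trim AGU, -1.02 for Trim AG and -0.84 for Trim A. *Tek* was higher in hypoxia than in normoxia under miR-125b (0.94, edgeR adjusted p = 0.00943) and was low throughout, at group means of 1.01 to 4.38 CPM with the highest under MC in hypoxia.

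Of 26 other angiogenic factors, 18 were tested under miR-125b, with 2 higher and 8 lower in hypoxia than in normoxia (9.34% and 11.5% of all genes) and a median log2 fold change of -0.34. *Il6*, a cytokine, rose (0.65), whereas the matrix protein *Cyr61* fell (-1.56). Against MC in hypoxia, edgeR and DESeq2 each called 3 of 18 lower (12.5% of all genes) and 0 higher, with a median of -0.18 (10 and 2 at an unadjusted edgeR p below 0.05), among them the endothelin gene *Edn1* (-0.81). Against MC, Plus A had 5 of 18 lower and 1 higher (24.8% of all genes called in either direction) and Trim A 8 and 2 (28.1%). Trim AG had 8 lower and 4 higher (37.2%), and Trim AGU 7 and 2 (23.8%). Of 13 angiogenesis inhibitors 12 were tested. In hypoxia against normoxia under miR-125b, 2 were higher (*Thbs2*, 0.87, and *Col18a1*, 0.77) and 2 lower (*Thbs1*, -1.33, and *Adamts1*, -0.85), with a median of 0.04 (9.34% and 11.5% of all genes). Against MC in hypoxia, 4 were lower and 0 higher (12.5% and 9.43% of all genes), with a median of -0.49, led by the vasohibins *Vash2* (-2.28) and *Vash1* (-1.16). Plus A had 5 of 12 lower than MC and 1 higher, and Trim A 8 and 0. Trim AG had 9 lower and 1 higher, and Trim AGU 8 and 0, with the shares of all genes given above for these comparisons. In hypoxia 9 of the 12 inhibitors were lower under Trim AG than under miR-125b (19.3% of all genes called in either direction), with a median of -0.87 against -0.002 for all genes.

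HIF targets outside angiogenesis were taken beside *Vegfa*, *Angptl4* and *Adm*. Of 24 tested under miR-125b, 13 were higher in hypoxia and 0 lower with edgeR and DESeq2 (19 and 3 at an unadjusted edgeR p below 0.05), with a median log2 fold change of 0.65 (9.34% of all genes were called higher), led by *Ankrd37* (2.23) and the mitophagy gene *Bnip3* (1.99 ± 0.0823 SE, edgeR adjusted p = 2.4e-07). Under Plus A and under Trim AG, 9 of 23 were higher in hypoxia, with 1 and 2 lower (22.8% and 32.8% of all genes called in either direction). DESeq2 called 10 higher and 1 lower under Plus A, and 12 higher and 1 lower under Trim AG. Under Trim A and under Trim AGU, 12 of 24 were higher, with 0 and 2 lower (26.5% and 27.0% of all genes called in either direction), and DESeq2 gave the same counts. Against MC in hypoxia, miR-125b had 2 of 24 higher (*Lox* and *Stc2*, both 0.73) and 4 lower (9.43% and 12.5% of all genes), with a median of -0.20, among them *Ndrg1* (-1.70) and the carbonic anhydrase *Car9* (-0.98). More were lower than MC under the isomiRs, with 9 of 24 lower and 1 higher under Plus A and 8 and 3 under Trim A. Trim AG had 10 lower and 3 higher, and Trim AGU 7 and 1. In the same order 24.8%, 28.1%, 37.2% and 23.8% of all genes were called in either direction. Under Trim AGU against miR-125b in hypoxia, where *Angptl4* was higher, 3 of 24 were lower (3.75% of all genes called in either direction) and the median was -0.21. For Trim AG against miR-125b in hypoxia, edgeR and DESeq2 each called 6 lower and 0 higher (19.3% of all genes; 14 and 5 at an unadjusted edgeR p below 0.05). The interaction of oxygen with Trim AG had 8 of 24 lower and 2 higher (11.3% of all genes).

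For each member with a mean of at least 1 CPM, the genes whose log2 level followed it most closely over the 11 group means were found among 11810 genes, as a description of 11 points that share libraries. *Rab3il1* (Pearson r = 0.994), *Sh3tc2* (0.991) and *Ndor1* (0.986) were closest to *Vegfa*. *Synm* (0.992), *Afap1l2* (0.989) and *Sh3bp4* (0.986) were closest to *Flt1*, and *Sncg* (0.986), *Tmem261* (0.979) and *Ninj1* (0.978) to *Angptl4*. The closest gene was *Fam169b* for *Adm* (0.980), *Atp6v1c2* for *Vegfb* (0.971), *Tmem143* for *Vegfc* (0.970), *Dclk1* for *Angpt1* (0.969) and *Slc9a3r2* for *Pgf* (0.960). No member was among the closest genes of another. By Spearman rank correlation 4 of the 24 genes so found, *Sh3tc2*, *Atp6v1c2*, *Ano10* and *Tmem261*, were still among the first 3.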

How the data were processed

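RNA of H9C2 cells was sequenced by the authors from non-stranded poly-A libraries, and HISAT2 and StringTie are named in the submitters' processing notes. The counting tool and the genome build are not given in the sources used here, and without strand a gene and an overlapping antisense gene cannot be told apart. The authors deposited 1 table per pair of groups, with raw counts per gene and library, FPKM and the gene length in bases. In 1 of 12 tables only the authors' group means were used, scaled counts (a signal with no value per library) for Normoxia Plus A and Normoxia MC. Columns of the authors' own DESeq2 comparisons (fold changes and p-values) were not used.

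The 11 count tables were joined on the gene identifier, with an absent gene set to 0. Libraries held 28361216 to 42672584 counts, which sets the counting error. Labels Trim 1, Trim 2 and Trim 3 were read, following the order in the protocol, as Trim A, Trim AG and Trim AGU. CPM used the library total, and levels per length used the deposited length. Tests used edgeR 4.0.16 (quasi-likelihood, TMM, filterByExpr) in R 4.3.3 with limma 3.58.1, in 18 comparisons of a pair of groups and 4 interactions, with Benjamini-Hochberg adjustment over all genes tested. The scripts were tested on simulated data. DESeq2 1.42.0, other filters and scalings, a replicate block and each library left out in turn were alternatives. Python 3.11.15, pandas 2.3.3, numpy 2.4.6, scipy 1.17.1 and matplotlib 3.10.9 were used for tables and figures.

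The members and gene lists were chosen with earlier results of these data known. All members found are named. From each other list, the genes named are up to 2 per direction with the largest change among those called, at a mean of at least 1 CPM, in hypoxia against normoxia under miR-125b and in miR-125b against MC in hypoxia. A gene that this rule also names is not reported here. The genes most like a member are the 3 with the highest Pearson r of log2(CPM + 1) over 11 group means.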

Additional observations from a re-analysis of the deposited data

Results flagged for a closer look

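In 5 cases the response to oxygen differed between an isomiR and miR-125b by the interaction test of edgeR. The difference in log2 fold change was -0.61 for *Vegfc* and -0.74 for *Angpt1* with Trim AG, and 1.95 for *Pgf*, 2.33 for *Angptl4* and 0.86 for *Adm* with Trim AGU. That of *Angptl4* was called under all 20 alternatives tried, and the other 4 lost their call under at least 1. No explanation of these differences was tested.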

How the results depend on the processing

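Over all comparisons, 61 calls of single members were made, 31 of them were kept under every alternative, 30 were lost under at least 1, and 0 reversed. Summed over the comparisons of a kind, there were 25 calls for oxygen, 20 against MC, 6 for isomiRs in hypoxia, 5 for isomiRs in normoxia and 5 for interactions. A fold threshold of 2 left 9 against MC, 2 for isomiRs in hypoxia, 1 in normoxia and 2 interactions, and no fold threshold gave 8 for isomiRs in normoxia. With 1 library left out, the counts were 24 to 26, 19 to 21, 4 to 7, 4 to 5 and 2 to 7 in the same order, and 3 interactions remained called in number without replicate 1 of Normoxia miR-125b and of Normoxia Plus A. With a replicate block there were 3 interactions. The main tests did not pair libraries by replicate number. Correlations of same-numbered libraries were -0.345 to 0.152 and no comparison had every pair above 0.1. With 3 libraries per group, these values cannot show whether same-numbered libraries were handled together. With the block 3 calls were lost, *Angptl4* in Trim AGU against miR-125b in hypoxia (1.49, edgeR adjusted p = 0.0592) and the Trim AGU interactions of *Pgf* (1.93, edgeR adjusted p = 0.114) and *Adm* (0.87, edgeR adjusted p = 0.0695), and lowered the genes called for these from 565 to 54 and from 150 to 15. Of 2704 alternative values of members, 2586 stayed on their side of the threshold, and the cause of the other changes was not tested. *Angpt2* was limited by depth, at no more than 17 counts per library.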

Other observations

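Genes around lipoprotein lipase and the PPAR receptors, the metabolic setting in which Angptl4 acts, did not move in 1 direction. Of 17 tested under miR-125b in hypoxia against normoxia, 4 were higher, led by *Cpt1b* (log2 fold change 1.14) and *Acot2* (0.86), which act in mitochondrial fatty acid import and acyl-CoA hydrolysis. Another 4 were lower, where 9.34% of all genes were called higher and 11.5% lower, led by *Acadl* (-0.97), a fatty acid oxidation enzyme, and *Plin2* (-0.87), a lipid droplet protein. Against MC in hypoxia, where *Angptl4* was 5.93-fold lower, edgeR called 3 higher and 1 lower (*Cpt1a*, -0.96), whereas DESeq2 called 2 higher and 3 lower. Of all genes, edgeR called 9.43% higher and 12.5% lower. The median log2 fold change of the list was 0.02 against 0.003 for all genes.

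Markers of other cell types were also summed. Macrophage markers stayed at 14 to 26.1 CPM over the libraries, mostly from *Cd14* (group means of 10.9 to 21.9 CPM). Cardiomyocyte markers stayed at 11.1 to 20.2 CPM, mostly from *Gata4* (group means of 9.18 to 15.1 CPM). Pericyte and smooth muscle markers were at 5019 to 5190 CPM in Hypoxia MC and at 7715 to 12272 CPM in all other groups. Most of that sum was *Acta2*, the smooth muscle actin (group means of 4033 to 10882 CPM). It was 0.89 log2 units higher under miR-125b than under MC in hypoxia (edgeR adjusted p = 1.9e-09), where *Kcnj8* (-1.14) and *Abcc9* (-0.90), channel genes of pericytes, were lower. *Pdgfrb*, *Cspg4*, *Notch3*, *Kcnj8* and *Abcc9* had their highest group mean in Hypoxia MC, against the direction of the sum, and *Myh11*, *Cnn1*, *Acta2* and *Mcam* in other groups.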
